A study of Mus musculus with 8 samples.

Results

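Collagens are the main structural proteins of the extracellular matrix, and each is built from 3 polypeptide chains, the alpha chains, which are encoded by a family of genes. The collagen chain genes were taken from the deposited value table as every probe whose platform gene symbol is Col, a number, the letter a and a number. This gave 59 probes for 37 genes, of 16593 genes with a symbol in the series, and the probe with the highest mean over the 8 arrays stood for each gene. The 37 genes comprise 11 fibrillar chains, 6 type IV (basement membrane) chains and 20 other chains.

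RNA of whole melanomas from C57BL/6 mice was measured on 8 Illumina bead arrays, 1 sample an array. The mice of every group carried BrafCA and Tyr::CreER, in which Cre recombinase under the promoter of tyrosinase, a gene of the melanocyte lineage, is activated by 4-hydroxytamoxifen, here painted onto the ear, flank and tail of newborn pups. One group held tumours of mice with the unaltered receptor gene Ifnar1+/+ (labelled WT) taken 38 days after tamoxifen, and the other 3 held tumours with Ifnar1SA (labelled SA) taken 20, 38 or 60 days after it, with 2 arrays in each of the 4 groups. Ifnar1 encodes a chain of the type I interferon receptor, and the SA form is known to be degraded less readily. The genotype field of the labels was followed, although their treatment text has Ifnar1-/- in place of Ifnar1SA. Whether the paired arrays of a group stand for separate animals is not in the labels, and the p-values reflect no more than the spread among these 8 samples, which may be technical. The series asks how type I interferon signalling bears on melanoma development, and the collagen genes are described here across its 4 groups.

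Fibrillar collagens (types I, II, III, V, XI, XXIV and XXVII) form the cross-striated fibres that give skin its tensile strength, with types I and III the bulk of the dermis and type V a minor chain that starts fibrils. Type IV collagen does not form fibrils but a sheet-like network in basement membranes, under epidermis and around vessels, nerves, muscle and fat cells. The other collagens sit on fibrils (types IX, XIV, XVI and XIX), form beaded filaments (type VI), anchor the epidermis (types VII and XVII), lie in the zone around basement membranes (types XV and XVIII) or span the plasma membrane (types XIII, XVII, XXIII and XXV).

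Levels are given as log2 intensity after background correction, on which the table reached from 4.17 to 16.13, and differences as log2 differences between group means with their standard error (SE). A probe was tested where its mean exceeded 7.24 (percentile 40 over the table), and 31 of the 37 genes passed. Col4a3, Col6a6, Col8a2, Col9a3, Col13a1 and Col19a1 did not, with single values from 4.43 to 8.42, and were not tested. Differences were tested with limma in 1 fit over the 8 arrays, with Benjamini-Hochberg adjustment over all 11661 measurements tested, and a gene was called at an adjusted p under 0.05. Levels of different probes depend on the probe and were not compared between genes.

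The arrays differed in ways that touch every comparison. Both SA day 38 arrays had Xist at 9.20 or above and the Y-linked gene Eif2s3y at 6.2 or below, whereas on the other 6 arrays Xist was at 7.56 or below and Eif2s3y at 11.37 or above. The sex of the mice therefore cannot be told apart from genotype or time in any comparison with SA day 38. The day 20 arrays agreed least with each other (Pearson's r 0.944 across genes, 1153 genes more than 2-fold apart, against r of 0.97 to 0.988 and 158 to 595 genes in the other groups), and melanocyte markers averaged -1.92 from their 8-array mean on day 20 replicate 1 and 1.27 on replicate 2. In SA against WT at day 38, all 9 melanocyte, all 18 skeletal muscle and all 9 adipocyte markers tested had differences above 0, against 47% of all genes, with 0, 0 and 1 of them called. In whole tumours, fewer cells of a type and less RNA per cell cannot be told apart.

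Across the 8 arrays the 31 collagen genes varied by 0.70 (Col24a1) to 4.22 (Col26a1), with a median range of 1.47, against 0.88 over all genes tested. Of the 31 genes, 10 varied by more than 2 log2 units, against 11.9% of all genes tested. The widest were Col26a1, Col28a1 (4.11) and Col1a2 (3.70). Both WT arrays lay above the gene's mean for most chains, and on average the 31 genes stood 0.47 and 0.52 above their 8-array means on the WT arrays. The same average was 0.28 and -0.23 on the SA day 38 arrays, -0.30 and -0.23 at day 20 and -0.36 and -0.14 at day 60. Day 38 replicate 1 of SA was above replicate 2 for 26 of 31 collagens, with a median gap of 0.58, while 50.4% of all genes were higher on it, so the SA day 38 group held 1 array near WT and 1 array near the other SA arrays.

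**Figure D1:**
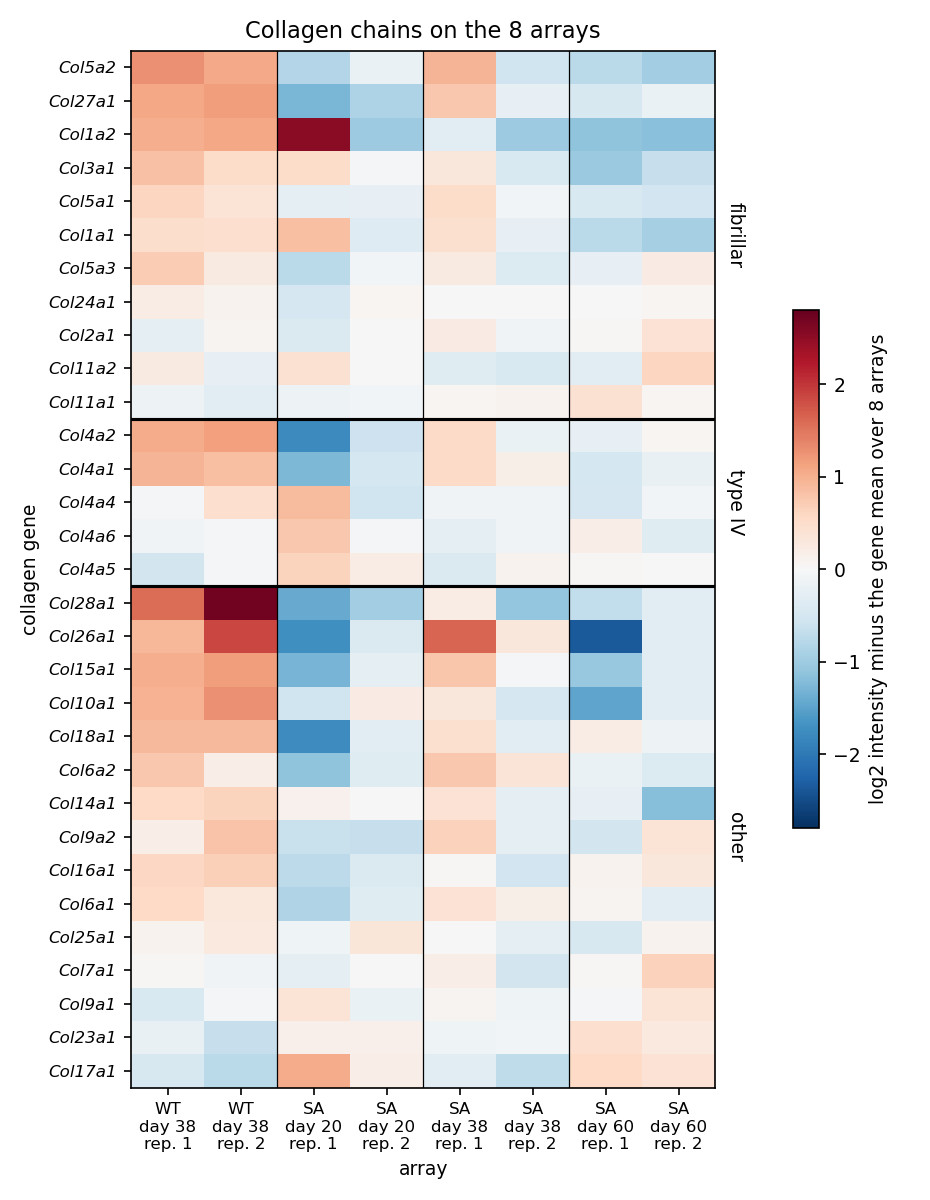
Level of each of the 31 tested collagen genes on the 8 arrays (columns, 2 replicates a group), as log2 intensity minus the gene's mean over the arrays, with red above and blue below that mean. Most rows are red on both WT arrays, the transmembrane chains Col17a1 and Col23a1 are blue there, and Col1a2 is far above its mean on day 20 replicate 1 alone of the SA arrays.

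Both WT arrays exceeded all 6 SA arrays for 11 of the 31 genes, against 12.4% of all genes tested: Col4a1, Col4a2, Col5a2, Col10a1, Col14a1, Col15a1, Col16a1, Col18a1, Col24a1, Col27a1 and Col28a1. Both were below all SA arrays for 1 gene, Col23a1, against 9.31% of all genes. Among the 11, Col10a1 passed the filter only through its WT values, which holds for every later count that includes it. Outside the 11, Col25a1 (mean 7.26) also passed the filter of 7.24 only through its WT values. Col11a1 (mean 7.25) would fall below the filter without the SA day 38 or the SA day 60 arrays. Later counts that include these genes carry the same limit. An F test for any difference between the 4 groups called 0 of 31 collagens and 0.0172% of all genes (2 genes) at an adjusted p under 0.05, and at an unadjusted p under 0.05 it took 17 of 31 collagens against 30.8% of all genes.

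The calls came from WT at day 38 against the mean of SA at days 20 and 60, the groups that share the sex pattern. In this comparison genotype and time both differ, so neither can be told apart from the other. Here 6 of 31 collagens were higher in WT, against 3.46% of all genes, and 0 were lower, against 3.1%. The called genes were Col28a1, Col27a1, Col4a1, Col4a2, Col15a1 and Col5a1, with 2 from each class. At an unadjusted p under 0.05, 15 collagens were higher (14% of all genes) and 2 lower, Col17a1 and Col23a1 (13.5% of all genes). The median difference was 0.80 over the 31 collagens, with 22 of them above 0 (49.4% of all genes), and -0.01 over all genes tested. By class it was 0.77 for the fibrillar chains, 0.26 for type IV and 0.84 for the others. The mean of a class, a measure unlike the median, varied between replicates by 0.23, 0.10 and 0.29 (SD). For type IV this SD understates the spread of the median. The type IV median stood 0.62 above and 0.50 below the genes' 8-array means on the day 20 arrays. With 1 array left out, its difference ran from -0.10 to 0.62. The calls rest on few arrays: without either WT array or either SA day 60 array 0 collagens were called, and at most 1 of all genes, while without SA day 20 replicate 2 it was 11 collagens and 10.7% of all genes. Chosen after the data were seen, WT against day 20 alone called 5 collagens (4.41% of all genes) and against day 60 alone 2 (5.53% of all genes), and Col28a1 was the 1 gene called in both.

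**Figure D2:**
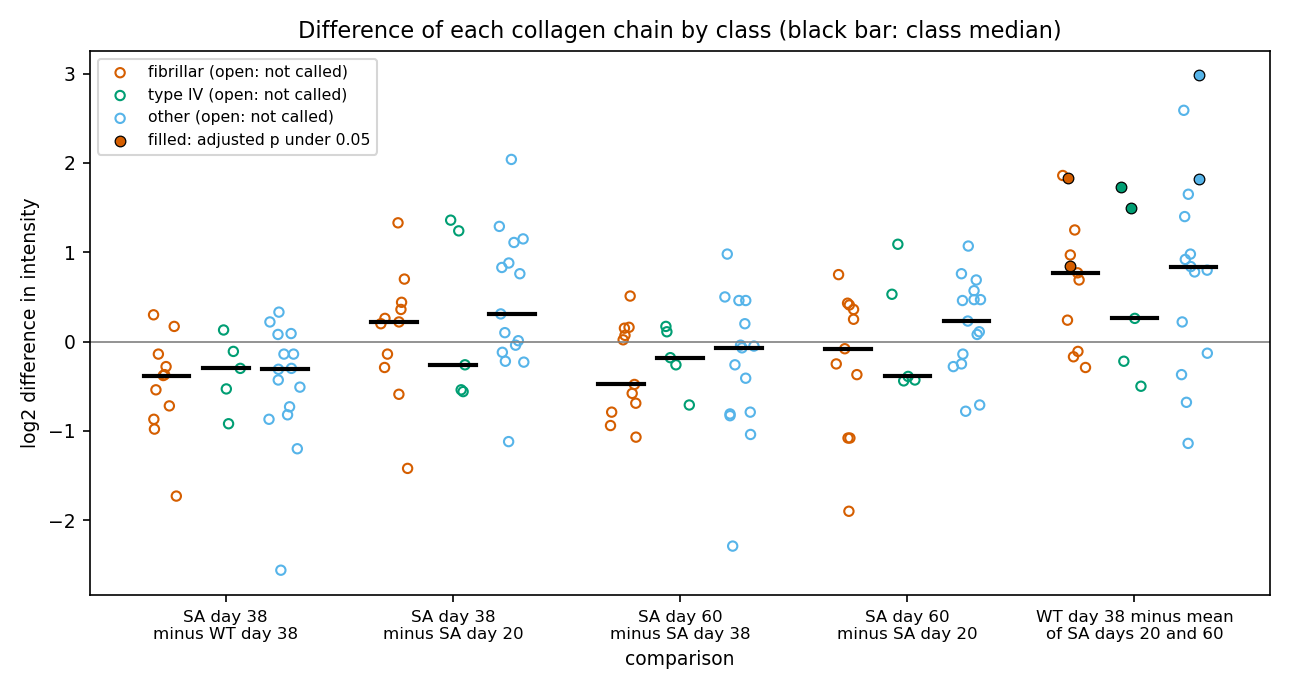
Log2 difference of each tested collagen gene in the 5 comparisons, by class (fibrillar, type IV, other), with a black bar at the class median and filled points at an adjusted p under 0.05. The 6 filled points all lie above 0 in the comparison of WT with the mean of SA days 20 and 60, and the type IV points split into 2 far above 0 and 3 near it.

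Among the fibrillar chains, Col27a1, which encodes the chain of a fibrillar collagen known from cartilage, read 9.32 and 9.40 on the WT arrays, 6.95 and 7.36 in SA at day 20, 8.98 and 8.00 at day 38 and 7.77 and 8.04 at day 60. Both WT arrays were above every SA array, and the day 20 arrays were the lowest. It was higher in WT than in the mean of SA days 20 and 60 by 1.83 (3.55-fold, SE 0.29, adjusted p = 0.0289). Col5a1, the main chain of the fibril-starting type V collagen, read 14.91 and 14.69 in WT, 14.06 and 14.08 in SA at day 20, 14.81 and 14.23 at day 38 and 13.87 and 13.77 at day 60. The WT arrays overlapped those of SA day 38 and lay above the other SA arrays, and the difference from the mean of days 20 and 60 was 0.85 (1.81-fold, SE 0.19, adjusted p = 0.0495). With 1 array left out, the adjusted p ran from 0.0263 to 0.24 for Col27a1 and from 0.0382 to 0.295 for Col5a1, and neither was called without either WT array or either day 60 array. Col5a1 was also lost without either day 20 array, so that its call stood in 2 of 8 such fits and that of Col27a1 in 4.

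The partner chains of type V collagen were not called in the main fit, but Col5a1 and Col5a2 both lay close to the threshold. Col5a2 was called with no background correction, with the filter at the 60th percentile and with all probes tested (adjusted p = 0.0488 in the last). Col5a1 was lost with the filter at the 20th percentile (adjusted p = 0.0619) and with a robust variance prior (adjusted p = 0.0501). Its call was also lost with no filter on dim probes (adjusted p = 0.0867) and with the replicate number as a block (adjusted p = 0.0661). Col5a2 read 10.67 and 10.44 in WT, 8.56 and 9.20 in SA at day 20, 10.33 and 8.82 at day 38 and 8.62 and 8.40 at day 60, a difference of 1.86 (SE 0.42, adjusted p = 0.0512). Its SA day 38 arrays were 1.51 apart, 1 near WT and 1 near the other SA arrays. Col5a3 differed by 0.69 (adjusted p = 0.191).

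Types I and III, the bulk of dermal collagen, were lowest at day 60. Col1a1, the chain that makes up most of type I collagen, read 15.64 and 15.63 in WT, 16 and 14.79 in SA at day 20, 15.60 and 14.92 at day 38 and 14.40 and 14.23 at day 60. Both day 60 arrays lay below the other 6. Col3a1, the single chain of type III collagen, read 13.88 and 13.58 in WT, 13.58 and 13.01 in SA at day 20, 13.38 and 12.64 at day 38 and 12.02 and 12.42 at day 60, with the same group lowest. In SA from day 20 to day 60, Col3a1 differed by -1.08 (SE 0.32, adjusted p = 0.134) and Col1a1 by -1.08 (SE 0.41, adjusted p = 0.185), and neither was called. Col1a2, the second chain of type I, read 12.19 and 12.25 in WT, 13.70 and 10.14 in SA at day 20, 10.84 and 10.15 at day 38 and 10.04 and 10 at day 60. Its day 20 arrays stood 3.56 apart, the widest gap within a group among the collagens, and with the higher of them (replicate 1) left out Col1a2 was among the genes called higher in WT than in the mean of days 20 and 60, while with replicate 2 left out it was called lower in SA at day 38 than at day 20. Col1a1 was also highest on day 20 replicate 1, the array that read lowest for the melanocyte markers and for Col4a1, Col4a2, Col15a1 and Col18a1, and the part of that array's makeup in these values was not tested.

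**Figure D3:**
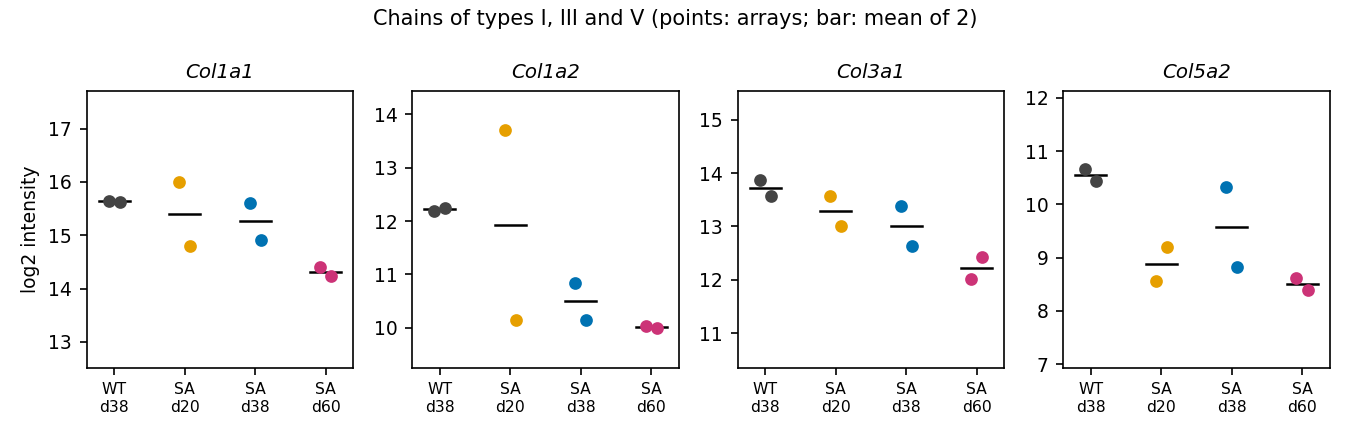
Log2 intensity of Col1a1, Col1a2, Col3a1 and Col5a2 on each array (points) with the mean of 2 arrays (bars), each axis spanning the same number of log2 units. Day 60 has the lowest mean in all 4 panels, and the 2 day 20 points of Col1a2 lie 3.56 apart.

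A second Col3a1 probe gave a larger difference between WT and the mean of SA days 20 and 60 than the main one. It read 11.31 on both WT arrays, 9.99 and 9.90 at day 20, 11.24 and 9.63 at day 38 and 8.09 and 7.61 at day 60, and differed by 2.41 (adjusted p = 0.0313 with all probes tested) where the main probe differed by 0.97 (adjusted p = 0.0833 in the same fit). Both probes put WT highest and day 60 lowest, but they order the other SA groups differently: from day 20 to day 38 the main probe differed by -0.29 and the second by 0.49, neither called. The cartilage-type chains Col2a1 and Col11a1 and their partner Col11a2, and Col24a1, varied by 0.70 to 1.01 over the arrays and had differences of -0.29 (Col11a1) to 0.24 (Col24a1) in this comparison, all with adjusted p of 0.264 or above. Of 11 cartilage markers on the array other than collagens, 7, including Acan, the core proteoglycan of cartilage, lay below the filter. Of the 4 tested, 3 had differences below 0 in this comparison, with a median of -0.37, and 1 was called lower in WT, Cytl1 (-2.33, SE 0.26, adjusted p = 0.0237).

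Type IV chains are named in pairs that share a head-to-head promoter: Col4a1 with Col4a2, Col4a3 with Col4a4, and Col4a5 with Col4a6. The first pair encodes the chains of the basement membranes found in nearly all tissues, and the other chains are restricted to some, such as kidney for the alpha 3, 4 and 5 network. The RefSeq promoter windows of Col4a1 and Col4a2 (build GRCm38.p6, 250 bases before to 50 after the start) are printed because both genes were called and are transcribed in opposite directions from starts that lie within the stretch both windows share. Col4a1 lies on the minus strand at chr8:11312777-11313076 and Col4a2 on the plus strand at chr8:11312555-11312854. The capitals mark the 78 bases that both windows hold, each the reverse complement of the other.
Col4a1: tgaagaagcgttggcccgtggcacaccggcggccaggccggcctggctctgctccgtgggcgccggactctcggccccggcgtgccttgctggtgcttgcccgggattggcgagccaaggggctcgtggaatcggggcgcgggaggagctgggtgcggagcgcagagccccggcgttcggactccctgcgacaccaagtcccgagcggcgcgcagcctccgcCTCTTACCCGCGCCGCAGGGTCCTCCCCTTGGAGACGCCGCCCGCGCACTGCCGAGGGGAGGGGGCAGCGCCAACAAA
Col4a2: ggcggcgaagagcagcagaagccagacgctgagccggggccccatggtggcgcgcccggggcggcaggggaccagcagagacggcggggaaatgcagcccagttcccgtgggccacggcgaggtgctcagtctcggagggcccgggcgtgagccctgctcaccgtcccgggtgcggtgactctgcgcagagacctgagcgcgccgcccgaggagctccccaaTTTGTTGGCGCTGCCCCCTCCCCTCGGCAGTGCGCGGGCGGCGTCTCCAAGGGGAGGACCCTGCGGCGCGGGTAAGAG
The GC content was 74% in the Col4a1 window and 73.7% in that of Col4a2, against a median of 52.7% over the 32851 RefSeq windows. Searched on both strands, CCAAT occurred in both windows (37.4% of all windows), GGGCGG in both (35.7%) and TATAAA in neither (13.6%). Of the 30 collagen genes with a window, 12 held CCAAT, 19 held GGGCGG and 5 held TATAAA.

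Col4a1 read 16.13 and 16.02 on the WT arrays, 13.92 and 14.69 in SA at day 20, 15.73 and 15.36 at day 38 and 14.69 and 14.97 at day 60. Col4a2 read 15.76 and 15.85 in WT, 12.93 and 14.13 in SA at day 20, 15.24 and 14.53 at day 38 and 14.48 and 14.77 at day 60. For both genes each WT array exceeded all SA arrays and the order of the group means was WT, SA day 38, SA day 60 and SA day 20. Against the mean of SA days 20 and 60, WT was higher by 1.5 for Col4a1 (2.84-fold, SE 0.24, adjusted p = 0.0296) and by 1.73 for Col4a2 (3.32-fold, SE 0.36, adjusted p = 0.0439). The value of 16.13 is the highest of the table, a ceiling that this WT array reached. With 1 array left out the adjusted p ran from 0.0183 to 0.24 for Col4a1 and from 0.0201 to 0.283 for Col4a2, and both were lost without either WT array or either day 60 array. Col4a2 was also lost without either SA day 38 array, so that its call stood in 2 of 8 such fits and that of Col4a1 in 4. Against day 20 alone the differences were 1.77 (adjusted p = 0.0349) and 2.28 (adjusted p = 0.0407), and against day 60 alone 1.24 (adjusted p = 0.0549) and 1.18 (adjusted p = 0.13).

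The other type IV chains gave no call in that comparison. Col4a5 read 8.45 and 8.92 in WT, 9.58 and 9.17 in SA at day 20, 8.56 and 9.07 at day 38 and 9 and 8.97 at day 60, and differed by -0.50 (SE 0.22, adjusted p = 0.202). Col4a6 read 7.34 and 7.38 in WT, 8.21 and 7.38 in SA at day 20, 7.17 and 7.35 at day 38 and 7.63 and 7.10 at day 60, close to the filter, and differed by -0.22 (adjusted p = 0.64). For both genes the highest single value was on day 20 replicate 1, where Col4a1 and Col4a2 were lowest. Col4a4 was likewise highest there (9.17, against 7.72 to 8.75 on the other arrays) and differed by 0.26 (adjusted p = 0.718), and Col4a3, below the filter, had its maximum of 8.42 on the same array. The type IV median therefore joins genes of opposite sign, and it was 1.5 where a filter at the 60th percentile was used.

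Of 13 partners of type IV collagen in basement membranes, 11 differed above 0 between WT and the mean of SA days 20 and 60, with a median of 0.90, and 5 were called higher, against 49.4% of all genes above 0 and 3.46% called higher. Nid2 and Nid1, nidogens that link the laminin and type IV networks, were higher by 2.24 (SE 0.33, adjusted p = 0.0268) and 1.37 (SE 0.23, adjusted p = 0.0315). The laminin chains Lama2 (1.85, adjusted p = 0.0249), Lamc1 (1.36, adjusted p = 0.0237) and Lamb1 (1.04, adjusted p = 0.0402) complete the called set, and together they form the laminin known from muscle and peripheral nerve. Agrn, agrin, differed by 1.22 (adjusted p = 0.0687) and Hspg2, perlecan, by 0.90 (adjusted p = 0.12). Lamb3, a chain of the epidermal laminin, had the lowest difference, -0.69 (adjusted p = 0.125).

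**Figure D4:**
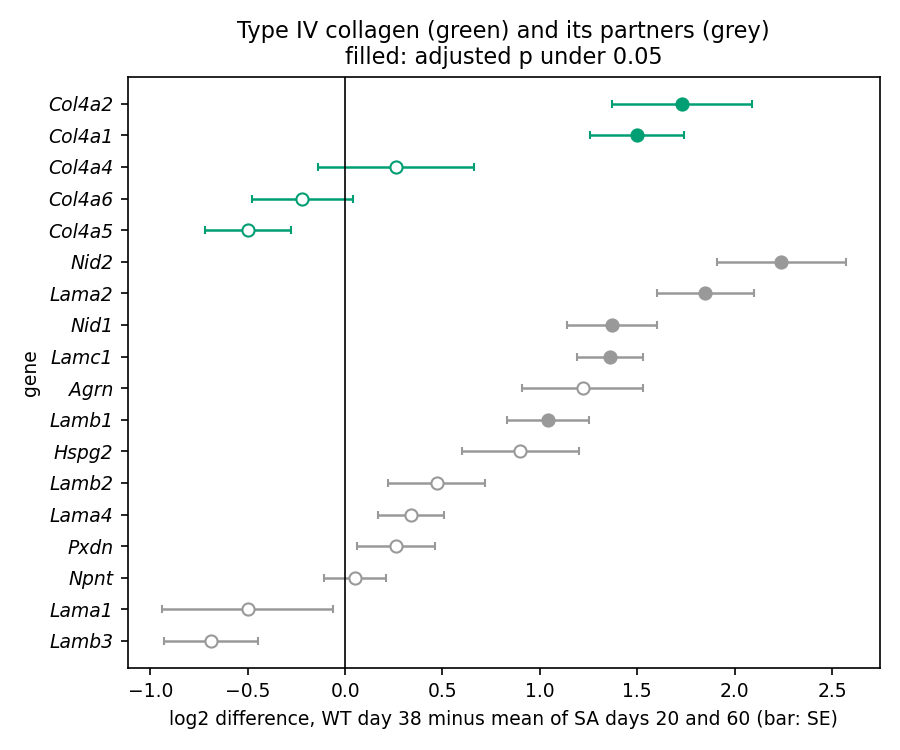
Log2 difference between WT at day 38 and the mean of SA days 20 and 60, with its SE, for the 5 tested type IV chains (green) and 13 basement membrane partners (grey). Filled points passed an adjusted p of 0.05: Col4a1 and Col4a2, and Nid2, Lama2, Nid1, Lamc1 and Lamb1.

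Cell type markers were read in the same comparison. Of all genes, 49.4% lay above 0 in it and 50.6% below 0, and 3.46% were called higher and 3.1% lower. At an unadjusted p under 0.05, 13.5% of all genes were lower. Of 7 Schwann cell markers, 2 were called higher in WT, Mal (2.50, adjusted p = 0.0477) and Cnp (2.27, adjusted p = 0.0362), but 3 of the 7 had differences below 0, the lowest Ncmap (-1.08, adjusted p = 0.0736). The list's summed intensity, which its brightest genes dominate, was 52000 to 52500 in WT, 27600 to 27800 in SA at day 20, 24800 to 50300 at day 38 and 19400 to 26900 at day 60. All 7 Schwann markers on the array passed the filter. Of 9 melanocyte markers all 9 were lower in WT, with a median of -2.32 and 1 called (Mitf), and their sums were 10500 to 11600 in WT, 5590 to 107000 in SA at day 20, 38000 to 52100 at day 38 and 110000 to 155000 at day 60. Endothelial and pericyte markers gave 0 calls among 13 with a median of -0.18. The 15 fibroblast markers other than collagens had a median of -0.07 with 2 called higher, Fap and Lum. Of these 15, 7 lay above 0 and 8 below, the lowest Pi16 (-2.53, adjusted p = 0.0611). At an unadjusted p under 0.05, 3 of them were higher and 3 lower. Skeletal muscle markers were lower in WT for 18 of 18 with a median of -1.19 and 0 calls, with sums of 93300 to 102000 in WT and 35900 to 597000 over the SA arrays. Of 9 adipocyte markers 7 were below 0 at an unadjusted p under 0.05, with a median of -1.89, and 3 were called lower in WT, Adig (-2.55, adjusted p = 0.0237), Plin4 (-2.25, adjusted p = 0.0311) and Pparg (-2.24, adjusted p = 0.0237). Their sums were 27400 to 29500 in WT, 48900 to 91700 in SA at day 20, 113000 to 126000 at day 38 and 28800 to 32000 at day 60. Macrophage markers had a median of 0.08 and 0 calls among 7. The part of these cell types in the collagen values was not tested.

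Among the remaining collagens, Col28a1 gave the largest called difference of the family. Type XXVIII collagen is a short chain with von Willebrand factor A domains, known in mouse from the basement membrane around Schwann cells. It read 11.32 and 12.46 in WT, 8.35 and 8.78 in SA at day 20, 9.96 and 8.68 at day 38 and 9.06 and 9.45 at day 60. Every SA array lay below the lower WT array, and the SA groups overlapped each other or nearly so. WT was higher than the mean of days 20 and 60 by 2.98 (7.87-fold, SE 0.45, adjusted p = 0.0271), than day 20 alone by 3.32 (adjusted p = 0.0337) and than day 60 alone by 2.63 (adjusted p = 0.0431). With 1 array left out the difference ran from 2.40 to 3.55 and the adjusted p from 0.0268 to 0.233, with the call lost without either WT array or either day 60 array. Col26a1, an unclassified collagen, varied most of all, reading 10.22 and 11.17 in WT, 7.58 and 8.88 in SA at day 20, 10.93 and 9.60 at day 38 and 6.95 and 9 at day 60. Its replicates were up to 2.05 apart, and its difference of 2.59 was not called (SE 0.71, adjusted p = 0.0772).

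Type XV and XVIII collagens carry heparan or chondroitin sulphate and sit in the zone of vascular and epithelial basement membranes. By their main probes they had the same order of group means as Col4a1 and Col4a2. For Col18a1 this order rests on nearly equal means of 14.98 at SA day 38 and 14.95 at SA day 60. Col15a1 read 14.72 and 14.87 in WT, 12.40 and 13.42 in SA at day 20, 14.47 and 13.65 at day 38 and 12.63 and 13.41 at day 60. Both WT arrays exceeded every SA array, and the difference was 1.82 (3.54-fold, SE 0.39, adjusted p = 0.046). This call was kept with day 20 replicate 2 left out (adjusted p = 0.0273) and lost with any other single array left out (up to 0.292). Col18a1, the source of endostatin, read 15.81 on both WT arrays and 13.15 to 15.35 on the SA arrays and differed by 1.40 (adjusted p = 0.0905). A second Col18a1 probe differed by 1.48 (adjusted p = 0.0571 with all probes tested). From SA day 38 to day 60 the second probe differed by 0.18 (adjusted p = 0.815) and the main one by -0.04 (adjusted p = 0.97 in the same fit). The probes thus order these SA groups differently.

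**Figure D5:**
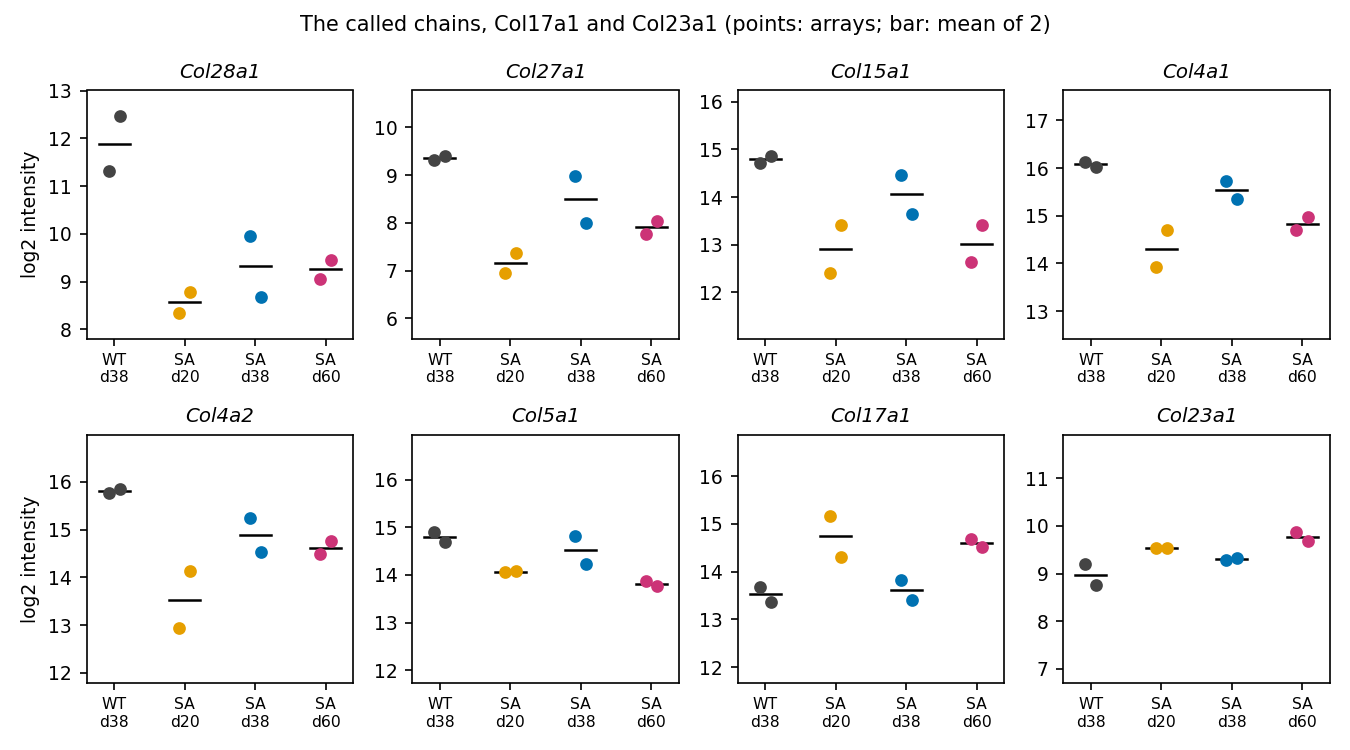
Log2 intensity on each array (points) and the mean of 2 arrays (bars) for the 6 called collagen genes and for Col17a1 and Col23a1, each axis spanning the same number of log2 units. The WT points are the highest in the panels of Col28a1, Col27a1, Col15a1, Col4a1 and Col4a2, and the lowest in mean in those of Col17a1 and Col23a1.

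Type VI collagen, the beaded filament of the space around cells, was lowest at day 20 by the main probes of Col6a1 and Col6a2. Col6a2 read 13.73 and 13.18 in WT, 11.85 and 12.64 in SA at day 20, 13.73 and 13.35 at day 38 and 12.80 and 12.61 at day 60. WT and SA overlapped at day 38, and the differences of 1.29 from day 20 to day 38 (SE 0.32, adjusted p = 0.278) and -0.83 from day 38 to day 60 (SE 0.32, adjusted p = 0.166) were not called. Col6a1 read 16.08 and 15.83 in WT and 14.68 and 15.19 in SA at day 20, and differed by 0.78 between WT and the mean of days 20 and 60 (adjusted p = 0.0709). Of its 3 probes, a dimmer one stood apart. With every probe tested, it differed by 1.92 in that comparison (adjusted p = 0.0276) and by -2.23 from SA day 38 to day 60 (adjusted p = 0.0437). The main probe gave 0.78 (adjusted p = 0.0703) and -0.41 (adjusted p = 0.312), and the remaining probe 0.74 (adjusted p = 0.0887) and -0.31 (adjusted p = 0.463). The dimmer probe was lowest at day 60 (6.76 and 6.86, against 8.24 and 8.02 at day 20), whereas the main probe put day 20 below day 60. The main probe read up to 16.08, near the table's highest value of 16.13. The part of that ceiling in the gap between the probes was not tested.

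Of the 3 transmembrane chains tested, 2 had differences below 0. Col17a1, the hemidesmosome collagen of basal keratinocytes, read 13.68 and 13.37 in WT, 15.17 and 14.31 in SA at day 20, 13.83 and 13.41 at day 38 and 14.68 and 14.52 at day 60. Both day 38 groups, of either genotype, were below every array of days 20 and 60. The difference between WT and the mean of days 20 and 60 was -1.14 (SE 0.27, adjusted p = 0.0555), and within SA it was -1.12 from day 20 to 38 (adjusted p = 0.31) and 0.98 from day 38 to 60 (adjusted p = 0.115). Whether Col17a1 was called between WT and the mean of days 20 and 60 depended on the processing. With all 8 arrays kept, it was called with no background correction and with the filter at the 60th percentile (adjusted p = 0.0478 in both). A variance prior with a trend (adjusted p = 0.0463) and array weights (adjusted p = 0.0191) also gave a call. With 1 array left out, the difference ran from -1.36 to -0.93, and that from day 38 to 60 from 0.77 to 1.19. The other Col17a1 probes differed by -0.86 and -0.94 between WT and the mean of days 20 and 60. Between WT and the mean of days 20 and 60, the 10 keratinocyte markers had a median difference of -0.17, with 3 above 0 (up to 0.33). Of the 10, 2 were called lower, against 3.1% of all genes: Trp63 (-0.88, adjusted p = 0.0344) and Krt15 (-1.73, adjusted p = 0.0497), both known from basal keratinocytes. The list's summed intensity was 239000 on both WT arrays, 282000 to 283000 at day 20, 255000 to 259000 at SA day 38 and 264000 to 283000 at day 60. The part of keratinocytes in the Col17a1 values was not tested.

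Col23a1, another transmembrane chain, read 9.20 and 8.75 in WT, 9.54 on both day 20 arrays, 9.29 and 9.33 at day 38 and 9.87 and 9.68 at day 60, with both WT arrays below every SA array. It differed by -0.68 (SE 0.16, adjusted p = 0.0574). It was called lower in WT with the filter at the 60th percentile (adjusted p = 0.0456) and with array weights (adjusted p = 0.041). No other setting run for this comparison called it. Col25a1 varied by 0.78 over the arrays and differed by 0.22 (adjusted p = 0.547). Col7a1, the chain of the anchoring fibrils under the epidermis, differed by -0.13 (adjusted p = 0.791).

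Of the fibril-associated chains, Col16a1 read 14.96 and 15.04 in WT, 13.65 and 13.98 in SA at day 20, 14.41 and 13.84 at day 38 and 14.47 and 14.69 at day 60. Both WT arrays were the highest, and the difference of 0.80 from the mean of days 20 and 60 was not called (SE 0.20, adjusted p = 0.0653), while that of 1.18 from day 20 alone was (adjusted p = 0.0466). Col14a1, a collagen of dense connective tissue, read 11.54 and 11.61 in WT, 11.10 and 10.99 in SA at day 20, 11.39 and 10.72 at day 38 and 10.75 and 9.79 at day 60, and differed by 0.92 (adjusted p = 0.114). Col9a2 differed by 0.84 (adjusted p = 0.186) and Col9a1, a partner of it in cartilage type IX collagen, by -0.37 (adjusted p = 0.334). Col10a1, known from hypertrophic cartilage, differed by 1.65 (SE 0.41, adjusted p = 0.0649) with both WT arrays highest.

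The comparison of genotypes at the same time, SA against WT at day 38, called 0 of 31 collagens and 0.06% of all genes (7 genes). At an unadjusted p under 0.05, 4 collagens were lower in SA, Col28a1, Col16a1, Col27a1 and Col10a1, against 7.86% of all genes, and 0 were higher, against 6.23%. The arrays of the 2 groups did not overlap for 17 collagens that were lower in SA (30.1% of all genes) and for 2 that were higher (24.1%). The median difference was -0.37 over the 31 collagens and -0.02 over all genes, and -0.38, -0.30 and -0.31 in the fibrillar, type IV and other classes. The smallest p among those below 0 belonged to Col28a1 (-2.56, SE 0.52, adjusted p = 0.206), Col16a1 (-0.87, SE 0.23, adjusted p = 0.239) and Col27a1 (-0.87, SE 0.33, adjusted p = 0.323). Among those above 0 it belonged to Col23a1 (0.33, adjusted p = 0.461), Col11a1 (0.30, adjusted p = 0.468) and Col9a1 (0.22, adjusted p = 0.748). Col11a1 read 7.12 and 6.95 in WT and 7.32 and 7.35 in SA at day 38, and Col9a1 7.32 and 7.70 against 7.83 and 7.63, with overlap. The medians of the fibrillar and other chains hinge on which SA array is kept. That of the other chains was -0.74 without SA day 38 replicate 1 and -0.02 without replicate 2. That of the fibrillar chains was -0.71 and -0.22 in turn. The type IV median moved most with the WT array kept, at -0.47 without WT replicate 1 and -0.08 without WT replicate 2. These WT arrays also enter the comparison with SA days 20 and 60, and the comparisons within SA share arrays in the same way.

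Within SA tumours, day 38 against day 20 called 0 of 31 collagens and 0.0172% of all genes (2 genes). At an unadjusted p under 0.05, 7 collagens were higher at day 38, against 4.77% of all genes, and 1 was lower, against 5.91%. The 7 were Col4a1 (1.24, SE 0.28, adjusted p = 0.235), Col6a2, Col27a1 (1.33, SE 0.33, adjusted p = 0.278), Col6a1, Col4a2, Col15a1 and Col26a1, and the 1 was Col17a1. Next to Col17a1 below 0 were Col4a5 (-0.56, adjusted p = 0.489) and Col4a6 (-0.54, adjusted p = 0.569). The median difference was 0.22 over the collagens and 0.01 over all genes. Without day 20 replicate 2, 1 collagen was called, Col1a2, and 0.3% of all genes.

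Day 60 against day 38 in SA tumours called 0 of 31 collagens and 1.07% of all genes (125 genes). At an unadjusted p under 0.05, 2 collagens were higher, Col17a1 and Col23a1 (15.1% of all genes), and 5 were lower (11%), Col5a1, Col26a1, Col6a2, Col4a1 and Col3a1. Col5a1 differed by -0.69 (SE 0.22, adjusted p = 0.113), Col26a1 by -2.29 (SE 0.82, adjusted p = 0.145) and Col23a1 by 0.46 (SE 0.19, adjusted p = 0.181), while Col16a1 differed by 0.46 (adjusted p = 0.262). The median was -0.48 for the fibrillar chains, -0.18 for type IV and -0.07 for the others, against 0.04 over all genes. Without SA day 38 replicate 1 the fibrillar median was -0.10 and without replicate 2 it was -0.82. With either day 20 array left out of the shared fit, Col17a1 was called, with 7.97% of all genes.

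Day 60 against day 20, the SA groups of one sex pattern, called 0 of 31 collagens and 0% of all genes. At an unadjusted p under 0.05, Col16a1 (0.76, SE 0.23, adjusted p = 0.139) and Col4a2 (1.09, SE 0.41, adjusted p = 0.186) were higher at day 60, against 13.8% of all genes, and Col3a1 and Col1a1 lower, against 9.67%. Col27a1 (0.75, adjusted p = 0.233) and Col14a1 (-0.78, adjusted p = 0.24) followed in each direction. Fibrillar chains thus lay on both sides of 0, with a class median of -0.08, against 0.03 over all genes, and a type IV median of -0.39 that joined Col4a2 and Col4a1 (0.53) above 0 with Col4a4, Col4a5 and Col4a6 below it. Without day 20 replicate 2, 4 collagens were called, Col18a1, Col1a1, Col1a2 and Col4a2, and 7.86% of all genes.

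Genes that make, process, bind and degrade collagen were read in the comparison of WT with the mean of SA days 20 and 60, in which 49.4% of all genes lay above 0, 3.46% were called higher, 3.1% were called lower and 14% were higher at an unadjusted p under 0.05. Of 17 genes of collagen synthesis and secretion, 15 differed above 0 with a median of 0.38, and 1 was called, Plod2, a lysyl hydroxylase that prepares stable cross-links (1.09, SE 0.22, adjusted p = 0.0402), a share close to that of all genes. Serpinh1, the collagen chaperone of the endoplasmic reticulum, differed by 0.24 (adjusted p = 0.609) and P4hb, a subunit of prolyl 4-hydroxylase, by 0.24 (adjusted p = 0.278). Of 7 genes of procollagen processing and cross-linking, 1 was called, and it was lower in WT: Pcolce2, an enhancer of procollagen C-proteinase, at -3.56 (SE 0.55, adjusted p = 0.0277), with a mean of 8.68 in WT against 12.47 (day 20), 11.13 (day 38) and 12.01 (day 60) in SA. Its relative Pcolce differed by 0.70 (adjusted p = 0.156). Lysyl oxidase, Lox, which cross-links fibrils, differed by -0.27 (adjusted p = 0.78).

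Of 11 fibril-binding proteoglycans and glycoproteins, 7 differed above 0 and 4 below. Only Lum, lumican, which binds fibrils and keeps them thin, was called, higher in WT by 1.5 (SE 0.27, adjusted p = 0.0339). At an unadjusted p under 0.05, 2 were higher and 2 lower, and the lowest was Podn (-1.27, adjusted p = 0.0551). Dcn, decorin, differed by 0.02 (adjusted p = 0.919). Its group means of 15.92 to 16.04 lay near the table's highest value of 16.13, where a difference may not show. Of 7 collagen receptors 0 were called and 3 had an unadjusted p under 0.05, all above 0: the integrin chains Itga2 (1.03, adjusted p = 0.0849), Itgb1 (0.76, adjusted p = 0.0906) and Itga1 (1.70, adjusted p = 0.0911). Of 7 collagen-degrading enzymes 2 were called higher in WT, Fap (1.58, SE 0.16, adjusted p = 0.0237), a fibroblast protease also on the fibroblast list, and Mmp13 (1.24, SE 0.20, adjusted p = 0.0299), a collagenase. Mmp14 and Mmp2 differed by -0.08 (adjusted p = 0.723) and 0.36 (adjusted p = 0.409), and 3 of the 7 enzymes lay below 0, the lowest the collagenase Mmp1a (-0.77, adjusted p = 0.0946). In SA against WT at day 38, 0 genes of these lists or of the basement membrane partners were called, and the partners had a median of -0.54 with 12 of 13 below 0.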

How the data were processed

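RNA of 8 whole melanomas, extracted with the Qiagen miRNeasy kit and labelled as biotin cRNA per the labels' protocols, was measured on 8 arrays. The deposited table holds a linear intensity for 25697 probes (183.9 to 71767); its sorted values agree between arrays, from which quantile normalization without background subtraction was read, and the submitters' processing notes name GenomeStudio 1.8. The 16 value columns of a second table were not used, since no label ties them to a sample. The deposited intensities went through limma's normexp correction (limma 3.58.1, R 4.3.3, saddle method, offset 16) before log2 was taken. The log2 values are thus not the authors' own, and the offset understates changes of dim probes. By the platform annotation, 23978 probes have 1 symbol, 0 several and 1719 none. Each gene was read by its brightest probe, and probes with a mean above the 40th percentile were tested. One mean a group was fitted to the 8 arrays (lmFit, eBayes, 4 residual and 2.48 prior degrees of freedom) with Benjamini-Hochberg adjustment over 11661 measurements. The number of arrays limits the precision, and an exact permutation test of 2 against 2 arrays could not go below 0.333.

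Every collagen could be named. Values on each array are given for those called in any comparison and for the 3 with the smallest p in each direction of a comparison, and other lists give up to 4 called genes, with partners of a chain added. The members and lists were chosen with earlier results of these data known. The fit was tested on simulated data. Promoter windows and motif counts came from RefSeq (GRCm38.p6) for 30 of 37 members. Alternatives covered background, filter, probe choice, renormalization, samples in the fit, replicate block, array weights, variance prior, class membership and leaving out each array. One item of the mouse model is not reported here.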

Additional observations from a re-analysis of the deposited data

How the results depend on the processing

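Over 33 single-gene results, 703 alternative values all kept their direction. These results were picked by call or smallest p in these same data. Several settings, such as the variance prior, leave the group means unchanged, so the direction could not change there. The kept direction is therefore no measure of how stable the results are. The count of collagens called in either direction between WT and the mean of SA days 20 and 60 (6, all higher in WT) was 3 with no filter on dim probes, 17 with array weights (17.8% of all genes; 2 of the 17, Col17a1 and Col23a1, were lower in WT) and, chosen after seeing the data, 2 against day 60 alone; over arrays left out it ran from 0 to 11, with Col17a1, lower in WT, among the 11. With the replicate number as a block the count was 0, with 1.72% of all genes called; the block is only a number here, since the replicate differences of 6 pairs of groups correlated by -0.20 to 0.11. The F test called 6 collagens with array weights and 0 to 10 with 1 array left out. The 0 calls of SA against WT at day 38 stayed at 0 under all alternatives run. With 1 array left out, SA day 38 against day 20 gave 0 to 1 calls, day 60 against day 38 0 to 1 and day 60 against day 20 0 to 4.

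With the filter at the 60th percentile, which drops dim chains, class medians moved as follows. In SA against WT at day 38 the fibrillar median was -0.63 and type IV -0.53 (-0.19 with no background correction). For day 38 against day 20 type IV was 1.24 and the others 0.76, and for day 60 against day 38 the fibrillar chains were -0.74. For day 60 against day 20 the fibrillar chains were -0.72 and type IV 0.53 (-0.22 with no background correction). In WT against the mean of SA days 20 and 60 type IV was 1.5, with 0.02 at the 20th percentile and with no filter, and 0.14 with no background correction. Against day 20 alone the fibrillar, type IV and other medians were 0.36, 0.04 and 1.13, and against day 60 alone type IV was 0.48 and the others 0.56. Adding types VII, XV, XVII and XVIII to type IV gave -0.04 for day 38 against day 20, -0.04 for day 60 against day 38 and 0.11 for day 60 against day 20.

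With 1 array left out, the fibrillar, type IV and other medians ran as follows. In SA against WT at day 38 they were -0.71 to -0.22, -0.47 to -0.08 and -0.74 to -0.02. For day 38 against day 20 they were 0.04 to 0.45, -0.77 to 0.46 and 0.02 to 0.59. For day 60 against day 38 they were -0.82 to -0.10, -0.38 to -0.08 and -0.53 to 0.18. For day 60 against day 20 they were -0.20 to 0.17, -0.60 to 0.14 and 0.12 to 0.56. In WT against the mean of SA days 20 and 60 they were 0.47 to 0.91, -0.10 to 0.62 and 0.78 to 0.89. The cause of the other moves was not tested. Single probes near the background limit the dim chains, and the top of the scale limits Col4a1. The main probe of Col6a1 (up to 16.08) and Col1a1 (up to 16) also read near that top, and its part in their differences was not tested.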
